A study of Zea mays subsp. mays with 2 samples.

Results

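A set of 333 maize loci was near-silent in endosperm of the dek2 mutant and stood at 3 FPKM or more in wild-type endosperm. The libraries compared were 1 of dek2 mutant and 1 of wild type (WT), both from endosperm at 15 days after pollination. The source label names the kernel and the tissue label the endosperm. The design text mentions triplicates, while each genotype has 1 table here. No label says whether a table is a pool, so every difference below is between these 2 libraries, has no replicate check and carries no p-value. The labels give neither the genetic background of the plants nor the molecular nature of the dek2 allele.

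The loci were chosen by their values in both libraries. Expression was deposited as FPKM, a fragment number scaled by transcript length and mapped total, for 45157 rows that each carry a chromosome, a start and an end. To put the libraries on one scale, dek2 FPKM was divided by 1.503, the median dek2/WT ratio over 22250 rows at 1 FPKM or more in both libraries. A locus was taken when its scaled dek2 level was under 1 FPKM and its WT level was 3 FPKM or more. It also had to lie on chromosomes 1 to 10, span at least 300 bp and hold its coordinate alone. A dek2 value above 1e-05 FPKM was required too, since 3690 dek2 rows and 6118 WT rows stand at exactly 1e-05, which was read as a placeholder for no value. Of 12908 loci that met every condition apart from the dek2 limit, 333 (2.58%) fell under it and 12575 did not. These 12575 loci are called the retained loci below.

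The endosperm is the storage tissue of the cereal kernel, which fills with starch and storage proteins after pollination. Dek2 is known from publications to be a pentatricopeptide repeat protein, one of a plant family of RNA-binding proteins that act in organelles, and to be needed for splicing of the mitochondrial nad1 transcript. Several storage protein families of maize stand in tandem arrays of closely related copies, whose reads are hard to assign to 1 copy. The deposited rows carry no gene name. In the reference gene table at hand (Zm-B73-REFERENCE-NAM-5.0), no gene starts where any of the 333 loci starts. Loci are therefore given by position as deposited, with a genome build not given in the sources used here, and no role is assigned to any of them.

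In dek2 the deposited values of the near-silent loci lay between 0.0281 and 1.49 FPKM with a median of 0.823 FPKM, and the scaled median was 0.548 FPKM. Scaled dek2 was under 0.5 FPKM at 156 loci and under 0.1 FPKM at 32 loci. In WT their level had a median of 5.09 FPKM and ranged between 3.02 and 2527 FPKM. Most were thus modest in WT, where 265 of the 333 (79.6%) lay below 10 FPKM, 13 reached 50 FPKM and 2 reached 1000 FPKM. The retained loci had a higher WT median of 11.5 FPKM, and 1501 of them reached 50 FPKM. Membership was thus more frequent near the WT limit. The near-silent share was 6.52% of loci at 3 to 5 FPKM in WT and 0.859% of loci at 50 FPKM or more.

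The set held little of either transcriptome. The 333 deposited values added up to 261 FPKM in dek2 and to 8885 FPKM in WT, which is 0.0243% of all dek2 FPKM and 0.780% of all WT FPKM. A pair of loci, on chromosomes 6 and 1, made up 50.4% of the WT sum and the 10 highest made up 71.1%. The near-silent set is thus a short list of abundant loci followed by a long tail of low ones.

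**Figure D1:**
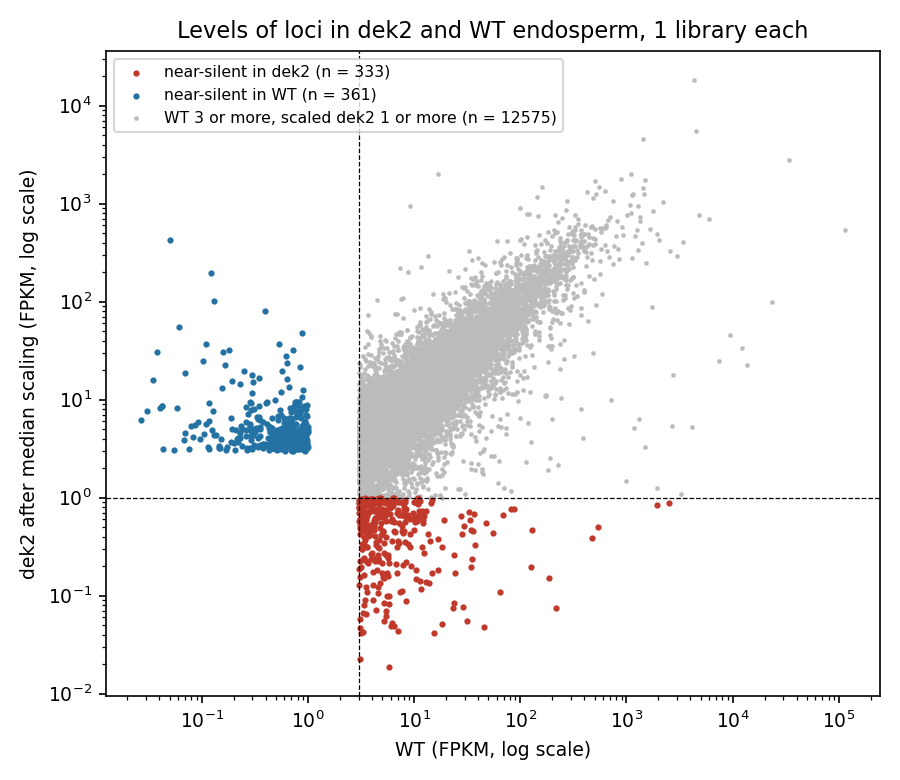
Level of each locus in dek2 after median scaling (vertical axis, FPKM, log scale) against WT (horizontal axis, FPKM, log scale), 1 library each. Red points are the 333 loci near-silent in dek2, blue points the 361 loci near-silent in WT and grey points the 12575 retained loci. Dashed lines mark 1 FPKM in dek2 and 3 FPKM in WT. Of the red points, 156 lie under 0.5 FPKM in scaled dek2 and 265 under 10 FPKM in WT.

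Ratios are given as log2((dek2 + 1)/(WT + 1)) after scaling, with a pseudocount of 1 FPKM, which understates the change of low loci. The rule fixes that all 333 loci lie at least 2-fold lower in dek2 on this scale, where 12.6% of the 12908 loci do. At least 4-fold lower were 176 of the 333 (background 3.19%), at least 8-fold lower were 57 (background 1.01%) and at least 32-fold lower were 14 (background 0.287%). These counts use the values that chose the loci and are a description only. The median log2 ratio was -2.03, the quartiles were -2.67 and -1.65, and the lowest was -10.39. Without a pseudocount, scaled dek2 kept a median of 8.54% of the WT level, with 0.0345% at the lowest locus and 31.0% at the highest.

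Since the rule keeps scaled dek2 under 1 FPKM, the log2 ratio follows the WT level by construction. Inside that narrow range, the dek2 level hardly varied with the WT level. Among loci at 3 to 5 FPKM in WT, the median scaled dek2 level was 0.590 FPKM and the median WT level 3.61 FPKM (160 loci, median log2 ratio -1.62). Among loci at 50 FPKM or more in WT, it was 0.471 FPKM against 129 FPKM in WT (13 loci, median log2 ratio -6.74). Across the 333 loci the rank correlation of the scaled dek2 level with the WT level was -0.10, and that of span with the WT level was -0.10. These are correlations across loci of 1 pair of libraries, inside the range the rule allows, and loci are not replicates.

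Loci lay close to each limit of the rule on both sides. The 5 members closest to the dek2 limit had 1.476 to 1.493 FPKM deposited in dek2, and the 5 just outside had 1.504 to 1.512 FPKM. The 5 members closest to the WT limit had 3.018 to 3.038 FPKM in WT, and the 5 loci just outside it had 2.987 to 2.997 FPKM. The chromosome 6 locus spanning 39091666 to 39092487, at 1.63 FPKM in dek2 and 3267 FPKM in WT, stayed outside by its scaled dek2 level of 1.08 FPKM.

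The most abundant member in WT was a locus of 688 bp on chromosome 6, from 39087614 to 39088302. It had 1.32 FPKM in dek2 and 2527 FPKM in WT, a log2 ratio of -10.39. It lies 3364 bp from the locus at 39091666 just named, whose ratio was -10.61, so the 2 lowest ratios of this region stood side by side. On its other flank, 3335 bp away, a coordinate from 39076856 to 39084279 held 2 gene models with 259 FPKM together in dek2 and 773 FPKM in WT (log2 ratio -2.16). No further locus lay within 100 kb. All 3 loci of this stretch were thus lower in dek2, but by very different amounts.

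The next in WT level was a locus of 723 bp on chromosome 1, from 161790709 to 161791432. It had 1.26 FPKM in dek2 and 1952 FPKM in WT, a log2 ratio of -10.05. Of the 5 other loci within 100 kb, 2 reached 1 FPKM in a library, and both were lower in dek2. One, from 161722412 to 161724923, had 0.498 FPKM in dek2 and 14.7 FPKM in WT, summed over 2 gene models. The shared coordinate keeps it out of the set, and 1 of its models stood at the placeholder in dek2. The other, from 161795489 to 161795834, stood at the placeholder in dek2 and at 4.51 FPKM in WT.

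On chromosome 4, members lay at 2 places crowded with strongly lower loci. The member from 5594839 to 5595805 had 0.746 FPKM in dek2 and 543 FPKM in WT (log2 ratio -8.50). Of 11 other loci at 1 FPKM or more within 100 kb of it, 8 were at least 2-fold lower in dek2, 6 of these at least 8-fold, and 0 were 2-fold higher. About 0.5 Mb away, the member from 5083078 to 5084155 had 0.228 FPKM in dek2 and 186 FPKM in WT (log2 ratio -7.35). Around it, 6 of 9 other loci at 1 FPKM or more were at least 8-fold lower and 1 was at least 2-fold higher, with ratios between -9.67 and 1.19. The adjacent member from 5079764 to 5080833 had 0.0711 FPKM in dek2 and 45.5 FPKM in WT (log2 ratio -5.47). Its span of 1069 bp is within 0.748% of the 1077 bp of its neighbour.

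On chromosome 6, a pair of members near 31.6 Mb had almost equal levels in WT. The one from 31600722 to 31602236 had 0.292 FPKM in dek2 and 127 FPKM in WT, and the one from 31648565 to 31650417 had 0.708 FPKM in dek2 and 129 FPKM in WT. Their log2 ratios were -6.74 and -6.46, and they are next to each other in the order of loci, 46329 bp apart. The nearest locus on the other side of the first, from 31567088 to 31568921, had 12.1 FPKM in dek2 and 369 FPKM in WT (log2 ratio -5.35), too high in dek2 for the set. Beyond the second, a locus 5703 bp away had 0.170 FPKM in dek2 and the placeholder in WT.

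The other 4 of the 10 members highest in WT had 0 loci at 1 FPKM or more within 100 kb that were at least 8-fold lower. One chromosome 8 member, from 108689438 to 108690609, had 0.582 FPKM in dek2 and 473 FPKM in WT (log2 ratio -8.42). The 1 other locus within 100 kb had a log2 ratio of -0.62. Another chromosome 8 member, from 132250529 to 132252119, had 0.112 FPKM in dek2 and 216 FPKM in WT (log2 ratio -7.66), and no locus at 1 FPKM or more lay within 100 kb. It kept 0.0345% of its WT level, the smallest share in the set. Its dek2 value rests on few fragments, at 2.99 times the unit defined below for depth. The chromosome 6 member at 39087614 kept nearly the same share, 0.0349%. One chromosome 3 member, from 192284005 to 192285910, had 1.16 FPKM in dek2 and 87.3 FPKM in WT (log2 ratio -5.64). A locus of 12244 bp begins 200 bp from its end and had 51.1 FPKM in dek2 and 34.5 FPKM in WT (log2 ratio -0.02 after scaling), so a near-silent and a steady locus adjoined. The last of the 10, also on chromosome 3, from 23898038 to 23899690, had 1.16 FPKM in dek2 and 81.5 FPKM in WT (log2 ratio -5.54). Its 2 flanking loci had log2 ratios of 0.42 and -2.19.

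**Figure D2:**
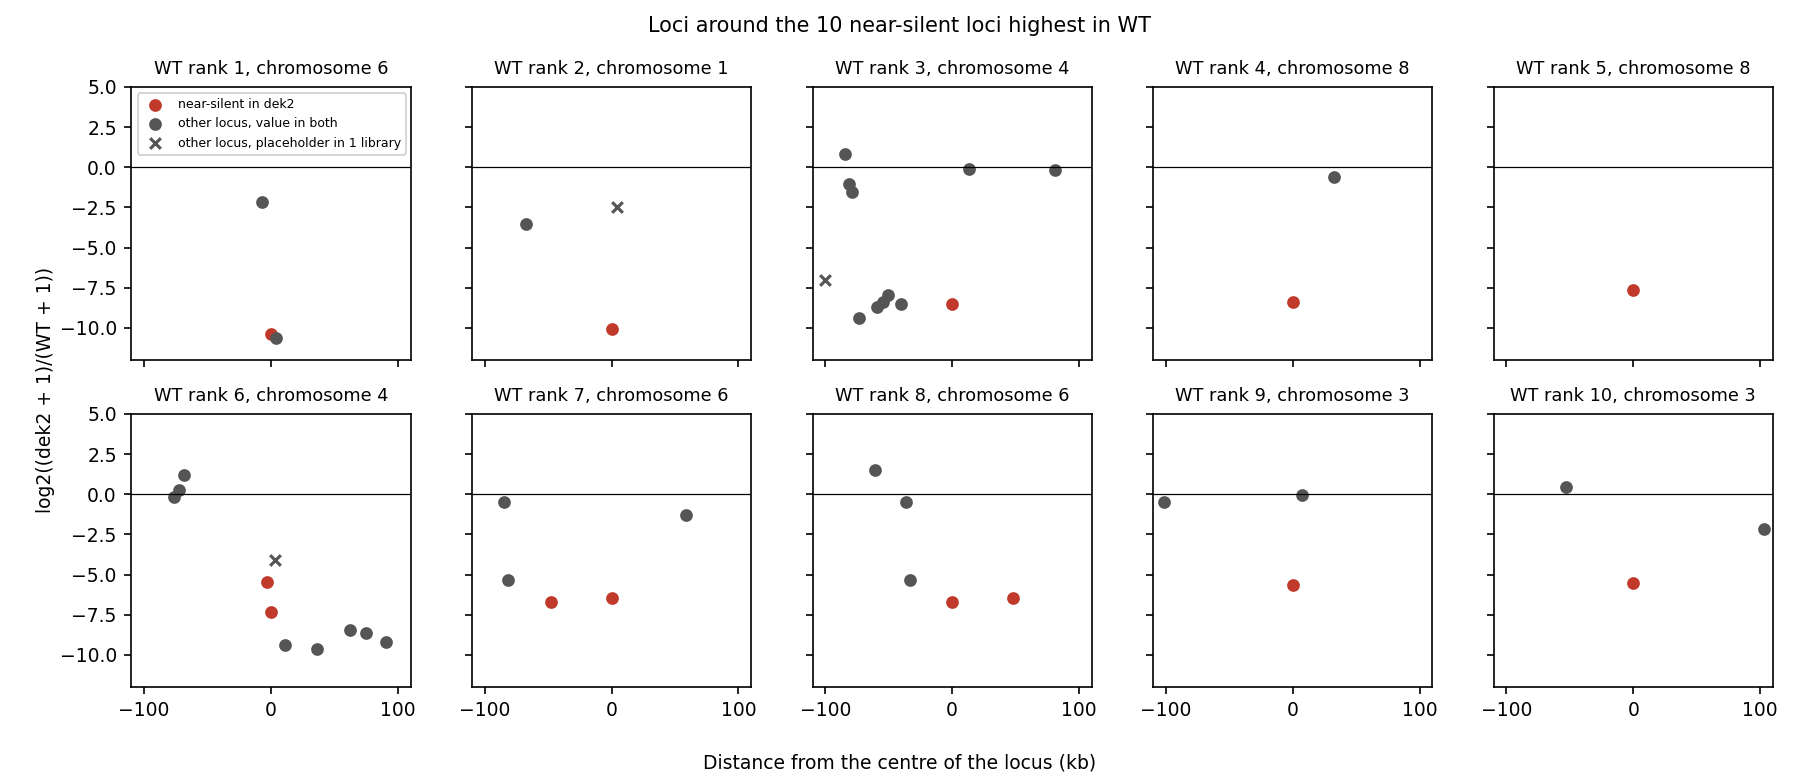
Log2 ratio of dek2 to WT (vertical axis, pseudocount of 1 FPKM, after scaling) for loci at 1 FPKM or more in a library, by distance in kb from each of the 10 near-silent loci highest in WT, 1 panel each. Red points are near-silent loci, grey points other loci with a value in both libraries and crosses other loci at the placeholder in 1 library. Strongly lower neighbours crowd the 2 panels of chromosome 4, while the 2 panels of chromosome 8 show 1 neighbour between them, at -0.62.

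The near-silent loci were short. Their span, which is end minus start and includes introns, had a median of 1590 bp, against 3793 bp at the retained loci. A span under 1500 bp was found at 152 of 333 near-silent loci (45.6%) and at 2164 of 12575 retained loci (17.2%), and at 31.6% of all 34455 loci of 300 bp or more with their own coordinate, whose median span was 2457 bp. A span of 20000 bp or more was found at 2 near-silent loci and at 326 retained loci (0.601% and 2.59%). The shortest member had 312 bp, on chromosome 5 from 95019260 to 95019572, with 0.818 FPKM in dek2 and 47.2 FPKM in WT. The longest had 44761 bp, on chromosome 3 from 187349409 to 187394170, with 1.38 FPKM in dek2 and 4.87 FPKM in WT.

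The difference in span held at every WT level examined. At 3 to 5 FPKM in WT the median span was 1720.5 bp at near-silent and 3467 bp at retained loci, and at 50 FPKM or more it was 1077 bp and 3190 bp. Read the other way, the near-silent share fell with span. It was 7.65% of 340 loci of 300 to 500 bp, 5.76% of 1787 loci of 1000 to 2000 bp, 1.85% of 5467 loci of 2000 to 5000 bp and 0.790% of 3924 loci of 5000 to 20000 bp. Inside the set, the WT level changed little with span, with medians of 4.88 FPKM at 300 to 500 bp and 4.54 FPKM at 5000 to 20000 bp.

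Short span was shared with loci that changed in the opposite direction. At 361 loci scaled dek2 was 3 FPKM or more while the WT value was above the placeholder and under 1 FPKM. Their median span was 1884 bp, and 38.8% of them were under 1500 bp. Their share of the eligible loci was 7.96% at 300 to 500 bp, 5.60% at 500 to 1000 bp, 5.85% at 1000 to 2000 bp, 2.27% at 2000 to 5000 bp and 0.930% at 5000 to 20000 bp. At 20000 bp or more it was 1.85% (6 of 324), where the share near-silent in dek2 was 0.610% (2 of 328). Loci at 3 FPKM or more in WT that stood at the placeholder in dek2, which the rule leaves out, were shorter still, with a median of 752 bp over 57 loci. The 265 members under 10 FPKM in WT had a median span of 1677 bp, with 44.2% under 1500 bp. The 1017 retained loci that were low in both libraries, at 1 to 3 FPKM in scaled dek2 and 3 to 10 FPKM in WT, had a median of 2741 bp, with 29.9% under 1500 bp.

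**Figure D3:**
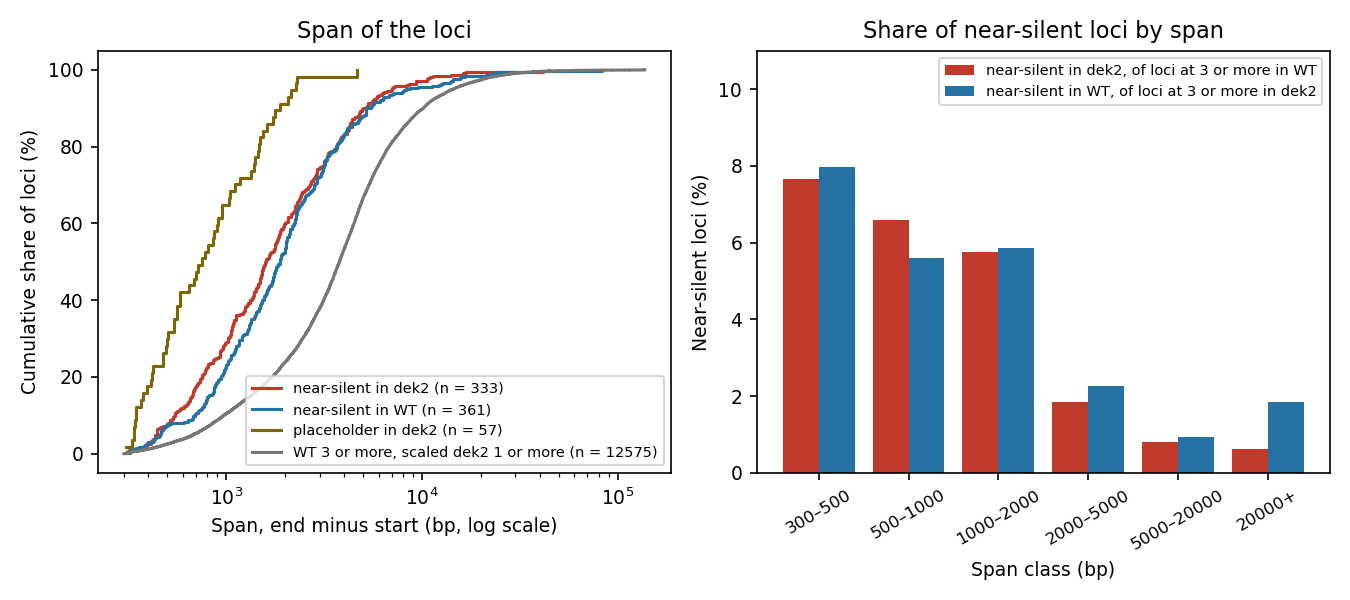
Left, cumulative share of loci (%) by span (bp, log scale) for the 333 loci near-silent in dek2, the 361 near-silent in WT, the 57 at the placeholder in dek2 and the 12575 retained loci. Right, share of near-silent loci (%) by span class (bp), for loci near-silent in dek2 (red) and near-silent in WT (blue). In both directions the share is above 5% in the 3 classes under 2000 bp and under 2.5% in the longer classes.

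Few fragments stood behind many of the dek2 values. The depth is unknown, but FPKM times span cannot fall below what 1 fragment is worth where fragments are counted whole. Among low rows (0.001 to 0.3 FPKM, 300 to 3000 bp), the lowest percent of this product lay under 59.3 FPKM bp in dek2 and 59.9 FPKM bp in WT. Measured in this unit, which gives only a rough upper limit on fragments because span includes introns, the near-silent loci had a median of 16.3 in dek2 and 176 in WT. In dek2, 24 of 333 loci were at 3 units or fewer and 106 at 10 or fewer, while the lowest in WT had 18.7. The dek2 levels of single members were therefore not distinguishable from each other at this depth when they differed by a few fragments. Whether depth also bears on the short spans was not tested.

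Near-silent loci were found on all 10 chromosomes. Their share of loci at 3 FPKM or more in WT lay between 1.74% on chromosome 10 (16 of 919) and 3.40% on chromosome 6 (36 of 1058), with 2.58% overall. Chromosome 6 also held 3 of the 10 members highest in WT. Chromosome 9 had 21 members but 0 at 10 FPKM or more in WT, and its highest reached 8.72 FPKM.

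Along the chromosomes the near-silent loci lay about where other loci at 3 FPKM or more in WT lay. The outer 20% at each end held 186 of the 333 (55.9%), and the near-silent share there was 2.44%, against 2.79% in the middle 60%. In 10 equal parts of the chromosome the share lay between 1.66% (19 of 1146) and 4.56% (24 of 526), with no steady course from end to centre. The number of loci within 1 Mb had a median of 48 around near-silent and around retained loci. The near-silent share was 2.78% where fewer than 20 loci lay within 1 Mb and 2.36% where 60 or more did.

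**Figure D4:**
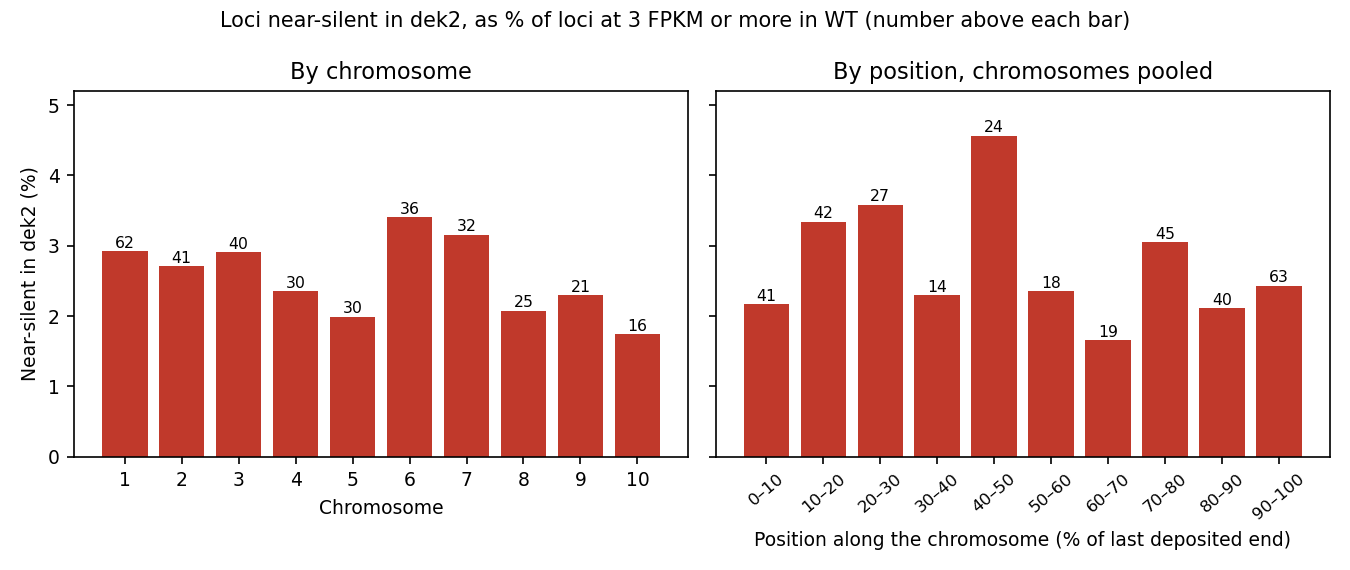
Loci near-silent in dek2 as a share (%) of loci at 3 FPKM or more in WT, by chromosome (left) and by 10 equal parts of the chromosome up to the last deposited end (right), with the number of loci above each bar. Shares lie between 1.74% and 3.40% by chromosome and between 1.66% and 4.56% by part.

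The nearest locus was somewhat farther away than usual. The median gap to it was 5623 bp from near-silent loci and 3425 bp from retained loci, and it lay within 10 kb at 195 of 333 (58.6%) and at 8172 of 12575 (65.0%). No locus on chromosomes 1 to 10 overlapped another, so 0 of the 333 overlapped a neighbour. The nearest locus reached 1 FPKM in a library for 69.4% of near-silent and 68.8% of retained loci. A near-silent locus thus had an expressed neighbour about as often as a retained one.

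Neighbours of the near-silent loci were mostly steady, with a modest surplus of lower ones. Within 100 kb of a member, 1152 other loci at 1 FPKM or more in a library had a median log2 ratio of 0.06, against 0.08 over all 25405 such loci. Of these neighbours, 158 (13.7%) were at least 2-fold lower in dek2, where the background is 10.6%, and 141 (12.2%) were at least 2-fold higher, where it is 13.1%. Leaving out loci that lay near no member but the 10 highest in WT gave 12.7% lower over 1129 loci. Part of the surplus thus came from loci near those 10 alone. Loci also within 100 kb of another member stayed in. This holds around the chromosome 4 member at 5083078, which lies 2245 bp from the member at 5079764, so that crowded stretch was not left out. Of 217 nearest loci that reached 1 FPKM in a library and were not members, 35 (16.1%) were 2-fold or more lower and 24 (11.1%) 2-fold or more higher, while 158 differed by less than 2-fold. Around the retained loci the nearest locus was lower in 10.01% and higher in 12.8%.

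**Figure D5:**
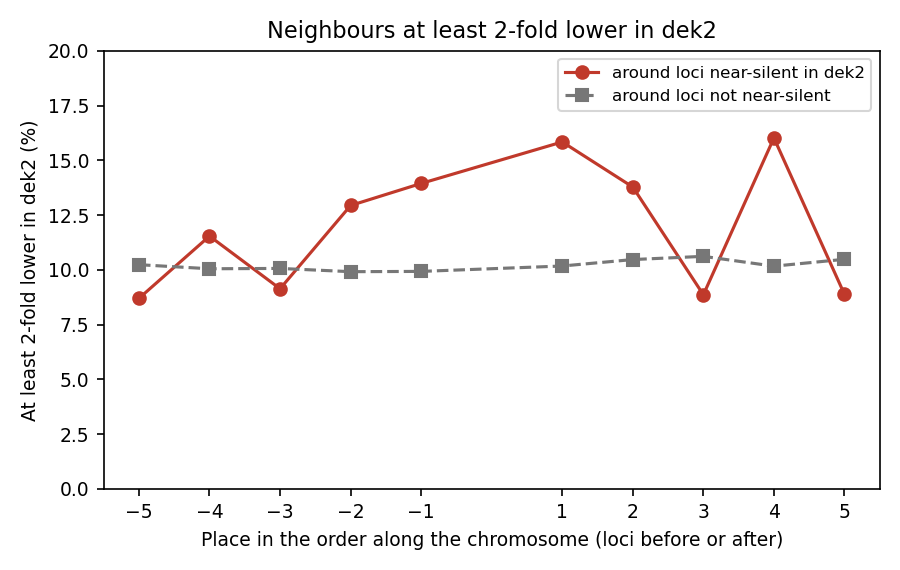
Share (%) of neighbours at least 2-fold lower in dek2, by place in the order of loci along the chromosome, from 5 before to 5 after each near-silent locus (red) or retained locus (grey). Only neighbours outside the set and at 1 FPKM or more in a library are counted. The red values lie between 12.9% and 15.8% at the 2 nearest places on each side, against 9.91% to 10.5% around retained loci, and between 8.70% and 16.0% farther out.

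A strongly lower locus directly beside a member was uncommon, and a strongly higher one was rarer. An adjacent locus within 10 kb, itself a member or not, was at least 8-fold lower in dek2 for 8 of 333 members (2.40%), against 69 of 12575 retained loci (0.549%). Many of these neighbours were members, low in dek2 by the rule, so the contrast overlaps with the pairs described below. The pairs starting at 5079764 on chromosome 4 and 68642361 on chromosome 6 count from both sides. Of the neighbours outside the set, those at 146405884 on chromosome 3 and 5086215 on chromosome 4 stood at the placeholder in dek2. An adjacent locus within 10 kb was at least 8-fold higher for 1 member (0.3003%), against 75 retained loci (0.596%). That member lies on chromosome 3 from 198661213 to 198665961, with 1.07 FPKM in dek2 and 3.76 FPKM in WT. Its neighbour, from 198667759 to 198668962, had 14.1 FPKM in dek2 and 0.284 FPKM in WT (log2 ratio 3.01).

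Some near-silent loci stood in pairs. Another member lay within 100 kb of 34 of the 333 (10.2%), while 558 of 12575 retained loci (4.44%) had a member that close. The 34 loci formed 17 pairs and 0 runs of 3 or more, and in 12 pairs no other locus lay between. Among the 361 loci near-silent in WT, 32 (8.86%) had another of their kind within 100 kb. Of 12710 loci at 3 FPKM or more in scaled dek2 that were not near-silent in WT, 654 (5.15%) had such a locus that close. This contrast was smaller than around the 333 loci, but both rest on few loci (32 and 34). Whether they differ was not tested.

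Members of a pair were sometimes of like span. In 5 of 17 pairs the spans differed by 10% or less. This held for 3 of the 12 pairs with no locus between (25%) and for 6.38% of 32602 adjacent pairs of loci of 300 bp or more within 100 kb of each other. On chromosome 6, the loci from 68642361 to 68642803 and from 68648426 to 68648868 both span 442 bp. In dek2 they stood at 0.295 and 0.884 FPKM, and in WT at 34.5 and 33.5 FPKM. The dek2 levels thus differed by a factor of 3 and the WT levels by 1.03. These dek2 values stood at only 2.20 and 6.59 times the unit used for depth, so they were not distinguishable at this depth. On chromosome 8, a pair of 2237 and 2350 bp starts at 9436052 and 9535208. Its members are not adjacent, being 96919 bp apart with 2 loci between. They had 0.848 and 0.699 FPKM in dek2 and 10.2 and 10.1 FPKM in WT. A further pair there, starting at 99504632 and 99536001, had 0.509 and 0.256 FPKM in dek2 and 8.73 and 14.7 FPKM in WT. Where such neighbours are alike in sequence they can share reads, and the values of single copies are then uncertain.

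Other pairs differed widely in span or ratio. One chromosome 2 member, from 69266390 to 69268157, had 0.257 FPKM in dek2 and 24.0 FPKM in WT (log2 ratio -4.42). The member beyond it, from 69321790 to 69333199, had 0.617 FPKM in dek2 and 4.85 FPKM in WT (log2 ratio -2.05). The closest pair, on chromosome 5, was 495 bp apart. It comprised a locus of 441 bp from 151217540, with 0.333 FPKM in dek2 and 8.40 FPKM in WT, and one of 1779 bp from 151218476, with 0.356 FPKM in dek2 and 4.60 FPKM in WT.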

How the data were processed

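Endosperm RNA of dek2 and WT at 15 days after pollination was sequenced, with 1 table per genotype. RNA came from a Trizol extraction with DNase I treatment and went into standard Illumina libraries, per the labels' protocols. Bowtie 0.12.2 is named in the submitters' processing notes. The authors deposited 1 FPKM value per coordinate, per the file headers, with the program, build and annotation behind it not given in the sources used here. FPKM divides out depth and transcript length, so no counting interval could be computed.

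The tables were paired line by line, dek2 was divided by the median ratio (0.59 on the log2 scale), and log2 ratios used a pseudocount of 1 FPKM. For neighbours, FPKM of rows with the same coordinate were summed. With 1 library per genotype no test was made. Loci were named by a rule: the 10 highest in WT with their flanking loci, those at the limits, the shortest and longest, and runs of 3 or more. The pairs, the locus beside a higher neighbour and the locus just outside the dek2 limit were named after their values were seen. The loci, rules and lists were chosen with earlier results of these data known. The selection code was run on simulated tables with planted near-silent loci inside the limits. The simulation held no fragment-counting noise, so it checks the code and not how reliable single members are. Python 3.11.15, pandas 2.3.3, numpy 2.4.6 and scipy 1.17.1 were used.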

Additional observations from a re-analysis of the deposited data

How the results depend on the processing

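The number of near-silent loci follows its limits by construction: 333 became 210 on the deposited values without scaling, 156 with scaled dek2 under 0.5 FPKM, 173 with 5 FPKM or more in WT and 68 with 10 FPKM or more. It stayed within 1.5 times with a scaling on everything but each library's 100 most abundant rows (354), placeholder rows (390), shared coordinates (446) or no minimum span (339). The median WT level was 8.11 FPKM at 5 FPKM or more. The median log2 ratio of -2.03 was -3.34 with a pseudocount of 0.1 FPKM and -1.91 without scaling. The median span of 1590 bp was 1455.5 bp at 10 FPKM or more in WT. The share with another member nearby, 10.2% within 100 kb, was 6.61% within 50 kb and 24.9% within 500 kb. The neighbours' median log2 ratio of 0.06 was 0.56 without scaling, which adds most of the shift of 0.59. Their share at least 2-fold lower, 13.7%, was 10.9% within 500 kb. The other 19 of 31 alternatives stayed inside the 95% binomial interval of the value or, for the count, within 1.5 times. This interval treats loci as independent draws and measures no spread between libraries. The alternatives for lower neighbours, for pairs without the 10 highest loci or with dek2 under 0.5 FPKM, and for span without scaling were added after the data were seen. No paired analysis was possible because each genotype has 1 library, and no replicate could be left out. Depth limits what can be said of dek2 levels under 1 FPKM.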

Other observations

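Loci near-silent in dek2 and loci near-silent in WT showed no mutual proximity beyond that of other loci. A locus near-silent in WT lay within 100 kb of 17 of the 333 loci near-silent in dek2 (5.11%) and of 634 of the 12575 retained loci (5.04%). As shares of the loci at 3 FPKM or more in the other library, the sets were of like size, with 333 of 12908 (2.58%) near-silent in dek2 and 361 of 13071 (2.76%) near-silent in WT.

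Of 57 loci at 3 FPKM or more in WT that stood at the placeholder in dek2, the WT levels lay between 3.05 and 811 FPKM with a median of 6.24 FPKM. Some members had a dek2 level close to the value of a single fragment. The locus on chromosome 4 from 2060576 to 2061511 had 0.0777 FPKM in dek2 and 18.4 FPKM in WT, 1.22 times the unit used for depth in dek2. The adjacent member of the chromosome 4 stretch, from 5079764, was at 1.28 times that unit.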
